A study of Mus musculus with 12 samples.

Results

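The genes described here encode the digestive enzymes of the lysosome, some of the proteins that work beside them, and the vacuolar ATPase, the proton pump that acidifies the compartment. They are 37 of the 11494 genes in the table: 16 whose symbols begin with Atp6v0 or Atp6v1, and 21 listed by name. By role they comprise 8 cathepsins, 5 other hydrolases, 4 lipid-transfer proteins or enzyme cofactors, 2 lysosome-associated membrane proteins, 17 proton pump genes (the 16 and Tcirg1) and the transcription factor Tfeb. RNA was sequenced from mouse blood neutrophils in 2 groups of 6 libraries, Control BMT and LOY BMT (bone marrow transplant; loss of the Y chromosome). All 12 libraries carry the treatment label Control, and the groups differ in the genotype label, Control or LOY. Each library came from 10000 sorted cells that were positive for Ly6G and RFP and negative for CD115. The labels used here give no strain, age or agent of the chromosome loss, do not say what carries RFP or which cells the recipients kept, and do not say whether each library is a separate mouse, so p-values measure the spread between these libraries. The study's title sets the comparison in work on haematopoietic Y loss and heart failure.

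Lysosomes break down proteins, lipids and sugars at acid pH. The cathepsins cut proteins, glycosidases and lipases take apart sugars and lipids, saposins present lipids to these enzymes, and the pump couples ATP hydrolysis in its V1 sector to proton transport through its membrane V0 sector. Neutrophils use this machinery to clear engulfed material and to acidify granules, and TFEB, a helix-loop-helix factor, binds E-box sequences (CACGTG core) in the promoters of many lysosomal genes.

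Recovered reads ran from 13743581 to 18459792 in Control and from 17097739 to 19616066 in LOY libraries. The libraries of Control 1, 2 and 12 stood apart, with 20.5%, 21.7% and 17.3% of listed genes at 0 against 6.59% to 11.6% in the other 9. Ddx3y, a Y-linked helicase gene, lay between 650 and 1348 normalized reads in Control libraries, at 366 in the library labelled LOY 4 and between 0 and 32.0 in the other 5 LOY libraries. The 9 neutrophil markers summed to 83605 to 134082 per 1000000 normalized reads in Control (median 108387) and 86246 to 116664 in LOY libraries (median 92328). Their limma estimates (LOY over Control) were below 0 for S100a8, S100a9, Ly6g, Retnlg, Mmp8 and Cxcr2. For Csf3r, Mmp9 and Itgam they were above 0. Without Control 1, 2 and 12, those of S100a8, S100a9, Ly6g, Retnlg and Mmp8 were above 0. Of 14 monocyte and macrophage markers 4 had a row (Csf1r, Adgre1, F13a1 and Ly6c2), and their sum ran from 626 to 1187 per 1000000 in Control and 746 to 1186 in LOY libraries. The estimates of these markers differed in sign. Csf1r, the gene of the CD115 sort marker, stood at 9279 ± 2572 normalized reads in Control libraries and 12442 ± 2295 in LOY libraries (0.45 ± 0.19 SE on the log2 scale, limma unadjusted p = 0.0358, adjusted p = 0.81), above the highest Control library in 4 LOY libraries, and without Control 1, 2 and 12 its estimate was 0.22. Ly6c2 differed by −0.57 ± 0.31 and Adgre1 by −0.23 ± 0.47, and F13a1 was above 0 in 2 LOY libraries and in 0 Control libraries. Erythroid markers (6 of 6 with a row) ran from 4283 to 8879 per 1000000 in Control (median 5557) and from 5898 to 37924 in LOY libraries (median 7505). The high end was the library of LOY 15, where Hba-a1 stood at 244166 normalized reads. In the other LOY libraries Hba-a1 lay between 40599 and 85766. B cell markers summed to at most 60.7 per 1000000 in Control and 78.9 in LOY libraries, and platelet markers to at most 88.2 and 69.8. T and NK cell markers reached 28.2 and 15.3, and Ccr3, the 1 eosinophil marker with a row, 7.32 and 9.76. What these other cells add to the lysosomal genes was not tested. In bulk RNA, fewer cells of a type and less RNA per cell cannot be told apart.

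Promoter sequences are shown first because the E-box, which the rule that chose the genes did not use, was found in some of them. RefSeq promoters (GRCm38.p6, 250 bases before to 50 after the start) were matched for 27 of the 37 genes. The others were Ctsb, Ctsh, Asah1, Npc1, Atp6v0a2, Atp6v0c-ps1, Atp6v1b2, Atp6v1c1, Atp6v1g1 and Atp6v1h. CACGTG, which reads the same on both strands, occurred in 8 of the 27 (29.6%): Atp6v0b, Atp6v0d1, Atp6v0e, Atp6v1a, Ctsa, Ctsd, Ctsl and Lamp1. It occurred in 12% of the table's genes with a promoter and in 8.09% of all genes in the RefSeq table. Of 120 other lysosomal genes with a promoter, from the lists described below, 29 held it (24.2%), so it was not particular to the 37. The longer palindrome TCACGTGA, which contains CACGTG, was in 5 of 27 (18.5%), in 2.44% of the table's genes and in 1.12% of all genes. GTCACGTG, searched on both strands and also containing CACGTG, was in 5 of 27 (18.5%), in 5.1% of the table's genes and in 2.55% of all genes. The CLEAR element in its full palindromic form, 1 base longer than TCACGTGA on each side, was in 0 of the 27 windows, in 0.917% of the table's genes and in 0.37% of all genes. Among the 120 other lysosomal genes, TCACGTGA was in 11.7%, GTCACGTG in 18.3% and the full form in 2.5%. In the 250 bases before the start alone, CACGTG was in 6 of 27 (22.2%), in 10.2% of the table's genes and in 6.86% of all genes. In that window TCACGTGA was in 3 of 27 (11.1%), in 2.01% of the table's genes and in 0.907% of all genes. The shares of the other lysosomal genes there were 23.3% for CACGTG and 10% for TCACGTGA. Atp6v0d1 and Atp6v0e were no longer among the matches. A match is a description of letters in this window and not a binding site.

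The stretches around the matches in 6 of these genes show 3 pump subunits, 2 cathepsins and a membrane protein with the same core. They run 5′ to 3′ on the gene's strand, and capitals mark CACGTG with any adjoining bases that extend it toward the full element.
Atp6v0b (V0 subunit, minus strand, chr4:117887312-117887397): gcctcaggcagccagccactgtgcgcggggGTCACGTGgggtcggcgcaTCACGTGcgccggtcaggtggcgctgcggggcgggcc
Atp6v0d1 (V0 subunit d, minus strand, chr8:105566045-105566099): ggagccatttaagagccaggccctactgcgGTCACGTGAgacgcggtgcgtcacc
Atp6v1a (V1 catalytic subunit A, minus strand, chr16:44139354-44139421): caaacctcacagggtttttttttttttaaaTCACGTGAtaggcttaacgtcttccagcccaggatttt
Ctsa (plus strand, chr2:164833729-164833792): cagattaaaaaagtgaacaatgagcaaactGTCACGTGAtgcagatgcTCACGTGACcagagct
Ctsd (minus strand, chr7:142387888-142387956): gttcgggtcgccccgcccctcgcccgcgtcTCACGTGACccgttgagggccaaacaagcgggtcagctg
Lamp1 (plus strand, chr8:13159069-13159180): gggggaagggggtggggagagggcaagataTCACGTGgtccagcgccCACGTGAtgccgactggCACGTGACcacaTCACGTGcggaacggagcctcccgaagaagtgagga

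Lamp1 held 4 matches in this stretch, and Atp6v0b and Ctsa held 2 each. Ctsd held 1 match in the stretch shown and 1 more, in CACGTGAC, 245 bases before the start, which is not printed. Lamp1 stood at 76.7 normalized reads per kb of merged exons in Control libraries, and Ctsd at 20273.

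All 37 genes were chosen from the listed genes, so that each had reads follows from the choice. Of the 37, 36 were above 0 in every library, as were 7276 of the 11494 listed genes. The exception was Atp6v1g2, a G subunit isoform known from neurons, with 0 reads in Control 12, Control 17 and LOY 10 (by counting error alone, 0 reads in a library leaves room for up to 3). On the scale of normalized reads per kb, which allows genes to be compared, 18 of the 37 lay above percentile 90 of listed genes and 35 above the median. Ctsd, the aspartic protease cathepsin D, was highest at 20273 per kb in Control libraries (percentile 99.7). After it came Psap, the saposin precursor, at 7814, and 3 pump genes, Atp6v1g1 (subunit G1) at 6108, Atp6v0b at 3950 and Atp6v1f (subunit F) at 3355. The lowest were Atp6v1h, the regulatory H subunit, at 26 and Atp6v1g2 at 29.7 per kb. The lysosomal cholesterol transporter gene Npc1 followed at 50 and Ctsc, which encodes the protease that activates granule serine proteases, at 53.4. This order depends on the length used. By the longest transcript Ctsd was still highest, Atp6v0b (8102 per kb) came before Psap (8069), and the lowest were Atp6v1g2 (39.6), Atp6v1h (52.4), Atp6v0c-ps1 (71.6) and Lamp1 (92.1).

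**Figure D1:**
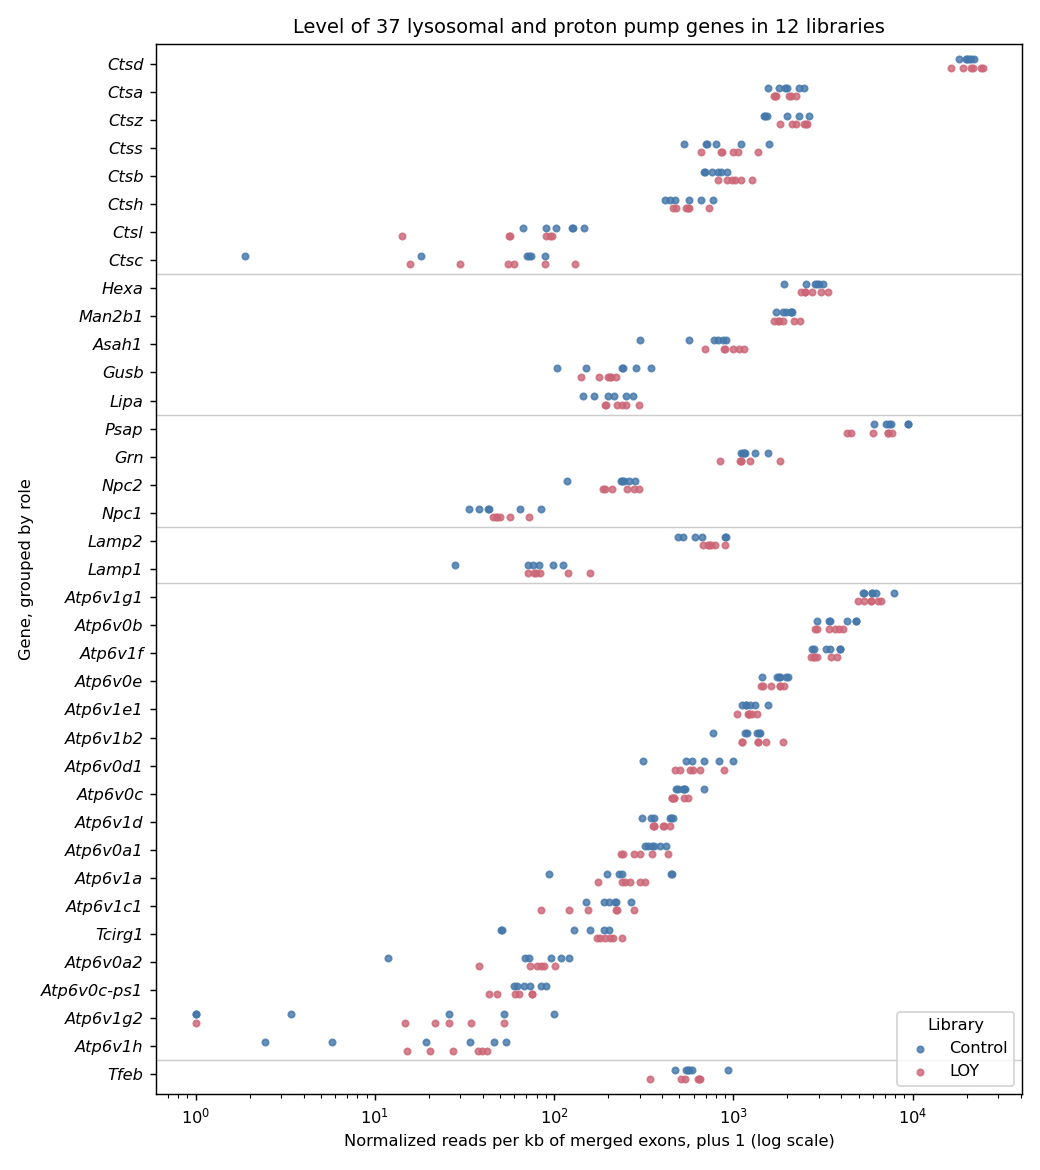
Normalized reads per kb of merged exons, plus 1, on a log axis, for each of the 37 genes (rows, grouped by role) in each of the 12 libraries (points, Control in blue and LOY in red). Ctsd lies highest, the Control and LOY points overlap for every gene, and the widest scatter is in genes of low level such as Atp6v1g2 and Atp6v1h.

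Between the groups, 0 of the 37 genes passed an adjusted p of 0.05 (limma on log2(value + 1), Benjamini-Hochberg over 9742 tested genes), against 0.0205% of all tested genes. Ddx3y did not pass either, though each LOY library lay below all Control libraries (−6.65, limma adjusted p = 0.189). The same held for Eif2s3y, also Y-linked (−7.26, limma adjusted p = 0.214). A gene that misses this threshold is thus not shown to be unchanged. At an unadjusted p under 0.05 there were 3 of 37 (8.11%), against 6.04% of all tested genes, so the share lay near the background. Ctsb and Tcirg1 were the 2 with higher estimates (4.4% of all tested genes) and Psap the 1 with a lower estimate (1.63% of all). Over all tested genes this split was 429 higher and 159 lower with limma, 345 and 281 after quantile normalization, 140 and 146 with edgeR, and 170 and 235 with DESeq2. On the recovered reads, edgeR gave 1 of 37 at an unadjusted p under 0.05 (2.94% of all genes) and 0 after adjustment (0% of all), and DESeq2 gave 2 (4.16%) and 0 (0.0411%). Without Control 1, 2 and 12 limma gave 1 (5.07%) and 0 (0%). For 0 of the 37 did the LOY and Control libraries separate without overlap, against 0.287% of all tested genes. The median log2 fold change (LOY over Control) was 0.02, with 19 estimates above and 18 below 0, against a median of 0.14 over all tested genes. Among genes with a mean of 500 normalized reads or more, it was −0.02 for 32 of the 37 and 0.00 for all genes. Quantile normalization moved the median of all genes to 0.000623 and that of the 37 to 0.0451. Leaving out 1 library left 1 gene at an unadjusted p under 0.05 in place of 3 for Control 1, Control 2, LOY 4 and LOY 15.

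These genes were measured with small errors, which bounds the differences that the libraries leave possible. Their median SE was 0.17 on the log2 scale, against 0.56 over all tested genes, and for 28 of 37 (75.7%) the 95% interval lay inside a 2-fold change in either direction. Among the 32 with a mean of 500 normalized reads or more this held for 87.5%, against 72.4% of all genes of that level. The median SE at that level was 0.16 for the 32 and 0.24 for all genes. The 9 whose interval reached past 2-fold were Ctsc, Ctsl, Asah1, Lamp1, Atp6v0a2, Atp6v0c-ps1, Atp6v1g2, Atp6v1h and Tcirg1. Over the 37 genes the median coefficient of variation was 23.7% in Control and 17.1% in LOY libraries, against 58% and 38.5% over all tested genes. At a mean of 500 normalized reads or more it was 20.3% and 16.1% for the 32, against 31.1% and 22.1% for all genes. The coefficient was larger in Control for 25 of the 37 genes, and for 77% of all tested genes. The library of Control 1 was the lowest Control library for 13 genes and that of Control 2 for 10. Control 1 was also the highest Control library for 6 genes and Control 2 for 9.

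**Figure D2:**
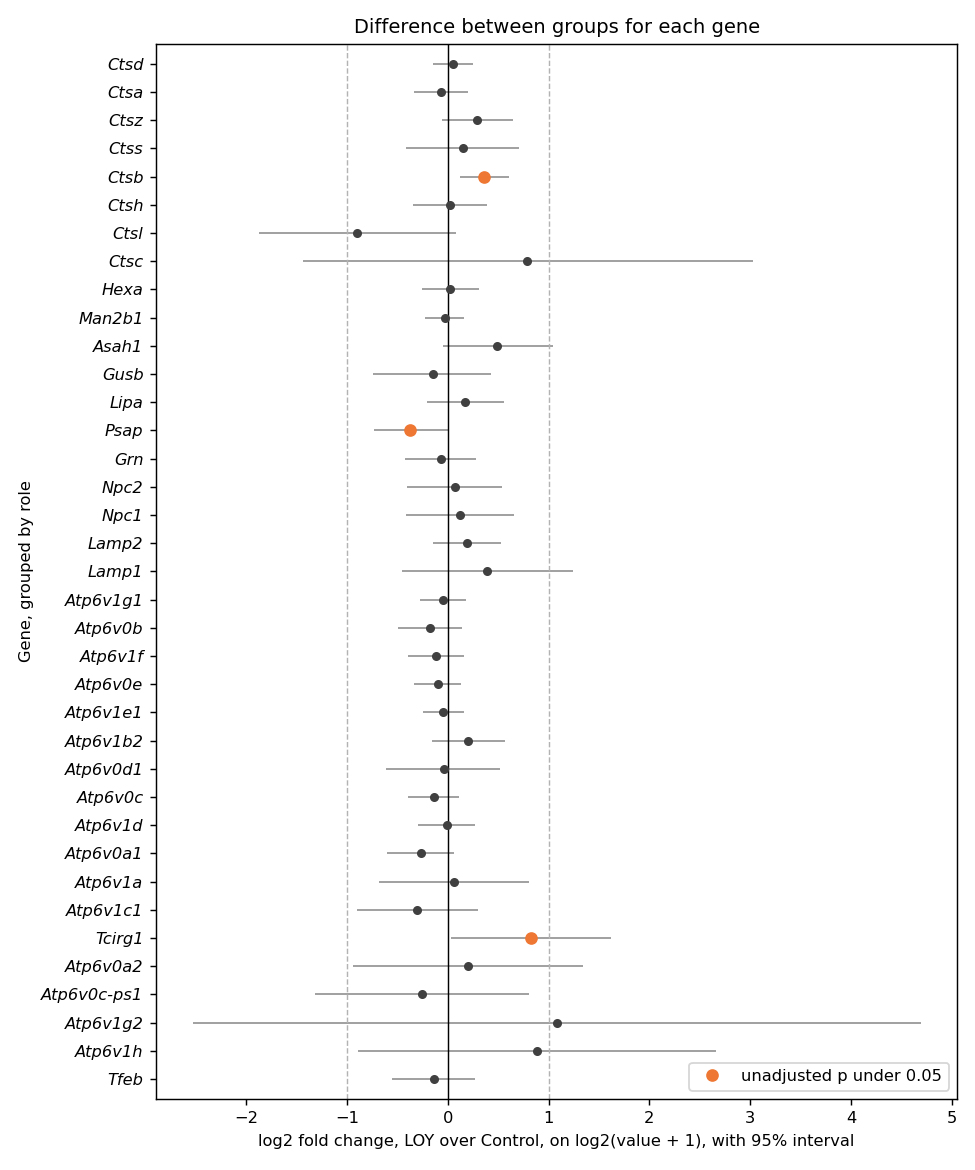
Log2 fold change of LOY over Control for each gene, grouped by role, with its 95% interval (limma, n = 6 libraries per group; dashed lines mark a 2-fold change). The 3 genes in orange (Ctsb, Psap and Tcirg1) had an unadjusted p under 0.05, and 0 of 37 passed after adjustment.

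Among the cathepsins, 6 of 8 estimates were above 0 and 2 below. Of all tested genes 60.9% had an estimate above 0. Among all genes with a mean of 500 normalized reads or more, 1799 estimates lay above 0 and 1783 below. Of the 8 cathepsins, 1 had an unadjusted p under 0.05, and 0 passed. That gene was Ctsb, the cysteine protease cathepsin B (ENSMUSG00000021939, chromosome 14, 63122462 to 63145923, GRCm38). It ran from 4128 to 5565 normalized reads in Control libraries (median 4778) and from 4972 to 7652 in LOY libraries (median 6034). In 4 of 6 LOY libraries it was above the highest Control library, and LOY 15 and LOY 19 lay within the Control range. The group means were 4765 ± 560 and 6151 ± 931 (SD, n = 6 each), a log2 fold change of 0.36 ± 0.11 (SE; limma, unadjusted p = 0.00759, adjusted p = 0.644). With edgeR on the recovered reads the unadjusted p was 0.00636. Without Control 1, 2 and 12 the estimate was 0.32 and the unadjusted p 0.0499 (limma), and over the 12 fits that each left out 1 library the unadjusted p ran from 0.00275 to 0.0191. In the authors' deposited table Ctsb has a log2 fold change of 0.37 and an adjusted p of 0.315.

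Ctsl, the cysteine protease cathepsin L (chromosome 13, 64359337 to 64370890), had an estimate below 0. It ran from 428 to 944 normalized reads in Control (median 736) and from 85.6 to 623 in LOY libraries (median 472). The library of LOY 19 was lowest at 85.6, and 3 LOY libraries lay below the lowest Control library. The means were 707 ± 188 and 436 ± 210, a log2 fold change of −0.90 ± 0.45 (limma, unadjusted p = 0.0681, adjusted p = 0.81). Without the library of LOY 19 the estimate was −0.48, the closest to 0 of the 12 fits that each left out 1 library.

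Ctsz, which encodes the carboxypeptidase cathepsin Z, ran from 2124 to 3809 normalized reads in Control (median 2536) and from 2622 to 3690 in LOY libraries (median 3407). Control 1, 2 and 12 were its 3 lowest libraries, at 2212, 2159 and 2124. The log2 fold change was 0.29 ± 0.16 (limma, unadjusted p = 0.0956), and without these 3 libraries it was −0.01. Ctsd, the most abundant, ran from 42877 to 51461 in Control (median 47728) and from 38212 to 58054 in LOY libraries (median 50405). The LOY range enclosed the Control range, with LOY 15 lowest and LOY 5 highest, and the difference was 0.05 ± 0.09 on the log2 scale. The other 4 genes were Ctsa, the serine carboxypeptidase that protects other lysosomal enzymes (−0.07 ± 0.12), Ctsh, an aminopeptidase (0.02 ± 0.17), Ctss, a cysteine protease of antigen presentation (0.15 ± 0.26), and Ctsc (0.79 ± 1.03). Ctsc was uneven, with 5.12 normalized reads in Control 2 and 98.9 in Control 18 while the remaining Control libraries held 403 to 511, and LOY libraries 85.6 to 758.

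Per kb of merged exons, Ctsd made up 76.3 ± 1.68% of the 8 cathepsins in Control and 75.3 ± 2.83% in LOY libraries. Next were Ctsa at 7.52 ± 0.848% and 6.89 ± 1.06%, and Ctsz at 7.13 ± 1.54% and 8.24 ± 1.03%. Ctsb contributed 2.97 ± 0.398% in Control and 3.64 ± 0.468% in LOY libraries. Ctsd led the family in each library, with a share between 70.8% and 78.5%. The ratio of Ctsd to Ctsb per kb was 26 ± 3.31 in Control and 21 ± 3.1 in LOY libraries. The cathepsin total over the 8 genes was 4177 ± 445 per 1000000 normalized reads for Control and 4476 ± 524 for LOY, a difference within 1 SD. It turned from 299 to −19.8 per 1000000 without Control 1, 2 and 12.

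The 5 other hydrolases gave 3 estimates above and 2 below 0, with 0 at an unadjusted p under 0.05. Asah1, the acid ceramidase (chromosome 8, 41340197 to 41374773), ran from 1021 to 3081 normalized reads in Control (median 2707) and from 2345 to 3882 in LOY libraries (median 3213). Control 1 and 2 were lowest at 1021 and 1925, and LOY 4, 5 and 9 lay above the highest Control library. The log2 fold change was 0.49 ± 0.25 (limma, unadjusted p = 0.0731, adjusted p = 0.81), and without Control 1, 2 and 12 it was 0.11. Hexa, the alpha subunit of hexosaminidase read at 2739 per kb of merged exons, the highest of the 5 by that length (by the longest transcript Man2b1 was higher, at 4170), ran from 3849 to 6287 in Control (median 5785) and from 4736 to 6736 in LOY libraries (median 5264). LOY 19 lay above the highest Control library and the other LOY libraries within the Control range, with a difference of 0.02 ± 0.13. Man2b1, the lysosomal alpha-mannosidase, was the most evenly read, at 15939 ± 1283 and 15633 ± 2129 normalized reads (−0.03 ± 0.09). Gusb, the beta-glucuronidase, stood at 1032 ± 401 and 870 ± 128 (−0.15 ± 0.27), and Lipa, the acid lipase, at 1411 ± 334 and 1573 ± 269 (0.17 ± 0.18).

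Psap (chromosome 10, 60277627 to 60302597) encodes the precursor of the saposins, which activate sphingolipid hydrolases. It ran from 16630 to 25861 normalized reads in Control (median 20430) and from 11725 to 20891 in LOY libraries (median 18172). LOY 4, LOY 10 and LOY 15 lay below the lowest Control library, and the other 3 LOY libraries lay within the Control range. The means were 21440 ± 3680 and 16871 ± 4012, a log2 fold change of −0.37 ± 0.17 (limma, unadjusted p = 0.0481, adjusted p = 0.81). The estimate was −0.27 without the library labelled LOY 4, which kept Y-linked reads, and −0.20 without Control 1, 2 and 12 (unadjusted p = 0.352). The unadjusted p was 0.0575 with edgeR. The authors' deposited table gives −0.35 and an adjusted p of 0.886.

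Of the other genes in this set, Grn, the precursor of the granulins, stood at 4289 ± 621 and 4160 ± 1140 normalized reads (−0.07 ± 0.16). Npc2, the soluble cholesterol-binding partner of Npc1, stood at 1247 ± 314 and 1280 ± 249 (0.07 ± 0.22), and Npc1 at 566 ± 220 and 590 ± 113 (0.12 ± 0.25). All 3 differed by less than 1 SE. Per kb, Npc2 was 5.26 ± 2.45 times Npc1 in Control and 4.63 ± 1.2 times in LOY libraries.

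The LAMP proteins line the inner face of the lysosomal membrane. Lamp2 (chromosome X, 38401357 to 38456454) ran from 4667 to 8659 normalized reads in Control (median 6082) and from 6447 to 8614 in LOY libraries (median 7044). All 6 LOY libraries lay inside the Control range, and the difference was 0.19 ± 0.16 (limma, unadjusted p = 0.246). Lamp1 (chromosome 8, 13159161 to 13175338) ran from 71.7 to 295 in Control (median 208) and from 188 to 419 in LOY libraries (median 214). Control 2 was lowest at 71.7 and LOY 19 highest at 419, and the difference was 0.39 ± 0.39 (unadjusted p = 0.333). Per kb of merged exons Lamp2 exceeded Lamp1 in each of the 12 libraries, by between 4.44 and 33.4 times, and made up 89.2 ± 4.98% of the pair in Control and 88.8 ± 3.39% in LOY libraries. By the length of the longest transcript the Control share was 94.8%.

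**Figure D3:**
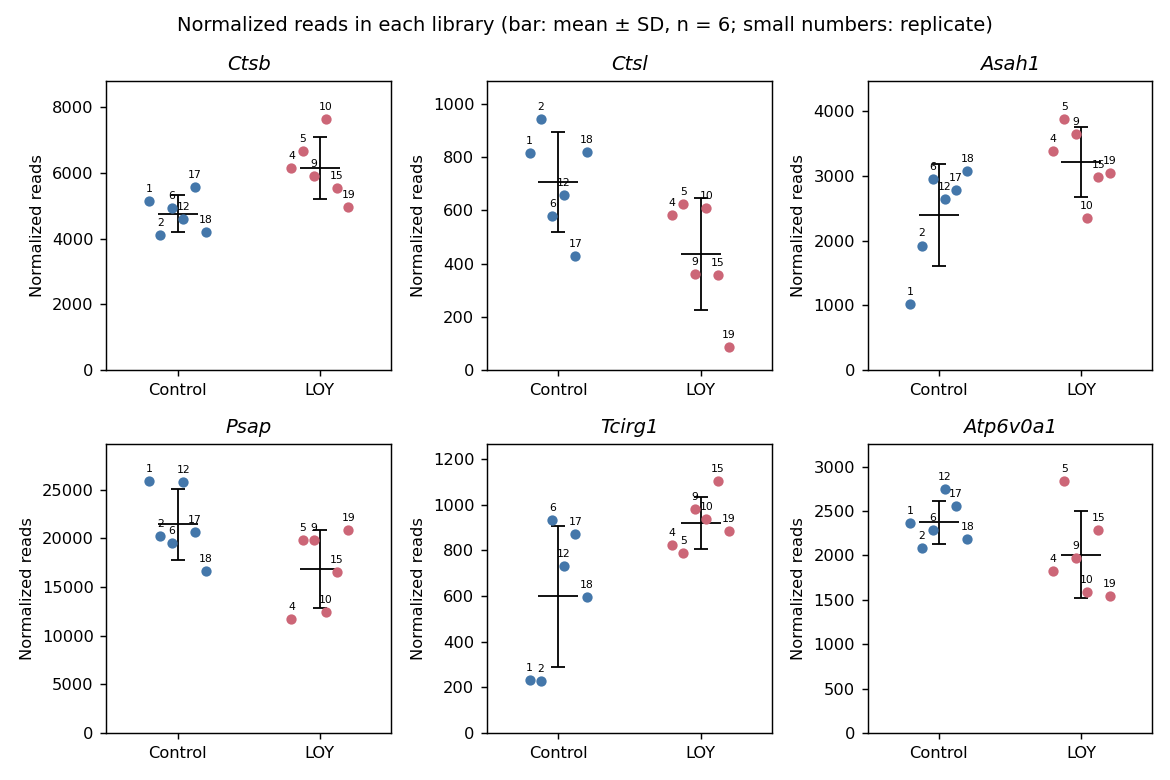
Normalized reads of 6 genes in each library (points, labelled by replicate; bars, mean ± SD, n = 6). For Ctsb 4 LOY libraries lie above all Control libraries, for Psap 3 LOY libraries lie below them, and for Tcirg1 the libraries of Control 1 and 2 lie apart at 232 and 228.

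For the proton pump, 6 of 17 estimates were above 0 and 11 below, with a median of −0.05. Of all tested genes 60.9% had an estimate above 0. Among all genes with a mean of 500 normalized reads or more, 1799 estimates lay above 0 and 1783 below, with a median of 0.00. Atp6v1d turned above 0 under TMM scaling, and Atp6v1d and Atp6v0d1 under quantile normalization. With edgeR and with DESeq2, Atp6v0a2, Atp6v1a and Atp6v1g2 turned below 0, which left 3 above and 14 below (48.9% and 47% of all genes were above 0 with these tools). Of the 17, 1 had an unadjusted p under 0.05, and 0 passed (limma). The V0 sector carries protons across the membrane and its a subunit, which exists as several isoforms, directs the pump to its compartment. The a3 isoform gene Tcirg1 (ENSMUSG00000001750, chromosome 19, 3896050 to 3907133), known from osteoclasts and secretory lysosomes, ran from 228 to 932 normalized reads in Control (median 661) and from 789 to 1101 in LOY libraries (median 910). Control 1 and 2 lay at 232 and 228 and the other 4 Control libraries between 593 and 932. LOY 9, 10 and 15 lay above the highest Control library. The means were 598 ± 308 and 919 ± 113, a log2 fold change of 0.83 ± 0.36 (limma, unadjusted p = 0.0421, adjusted p = 0.81). It was 0.60 without Control 1, 0.59 without Control 2 and 0.22 without Control 1, 2 and 12 (unadjusted p = 0.274).

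Atp6v0a1, the a1 isoform gene (chromosome 11, 101009452 to 101063719), ran from 2088 to 2753 normalized reads in Control (median 2326) and from 1539 to 2834 in LOY libraries (median 1900). LOY 4, 9, 10 and 19 lay below the lowest Control library, while LOY 5 lay above the highest. The difference was −0.27 ± 0.15 (limma, unadjusted p = 0.103). Atp6v0a2, the a2 isoform gene, stood at 530 ± 262 and 514 ± 144 (0.20 ± 0.52), with a low value of 73.1 in Control 1. With edgeR its estimate was −0.04, and with DESeq2 −0.05.

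Expressed per kb, Atp6v0a1 made up 64.8 ± 10.9% of these 3 a isoforms in Control and 52.1 ± 5.92% in LOY libraries, and Tcirg1 21.6 ± 8.67% and 34.8 ± 5.68%. Atp6v0a2 supplied 13.6 ± 7.21% and 13.1 ± 3.81%. Atp6v0a1 held the largest share in each of the 12 libraries. The share of Tcirg1 ran from 10.1% (Control 2) to 30.7% (Control 6) in Control and from 24.8% (LOY 5) to 42.2% (LOY 10) in LOY libraries. Those of Control 1 and 2, at 12% and 10.1%, were the lowest of the 12, and 5 of 6 LOY libraries lay above the highest Control library. These shares are parts of the total of the same 3 genes, so a larger share of 1 gene leaves less for the others. They were not tested.

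**Figure D4:**
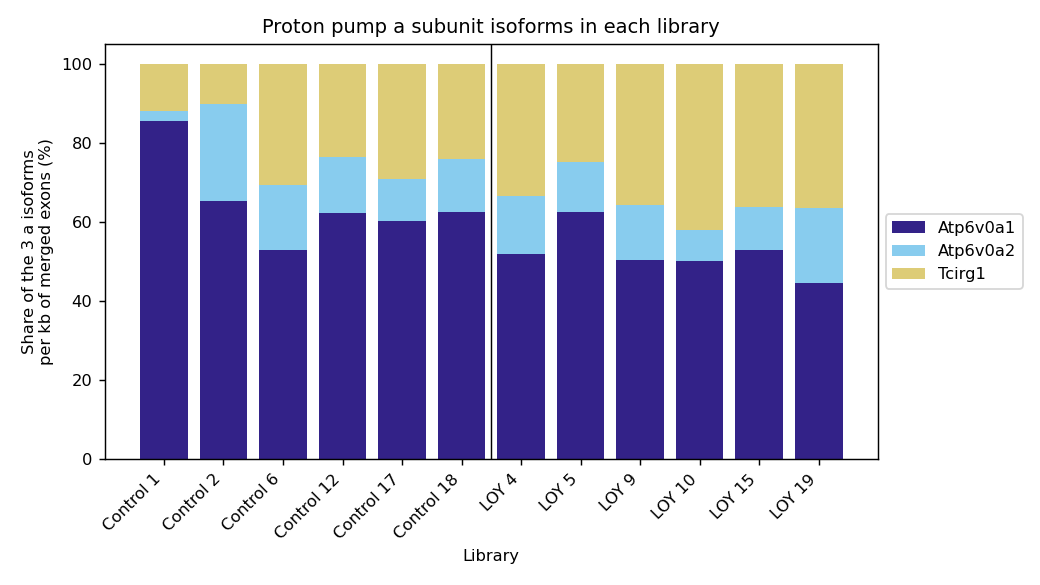
Share of the 3 a subunit isoform genes per kb of merged exons (stacked bars, percent) in each Control library (left of the line) and LOY library (right). Atp6v0a1 is the largest part in each library, and the Tcirg1 part is smallest in Control 1 and Control 2, at 12% and 10.1%.

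The proteolipid ring of V0 is built from the c subunits. Atp6v0b, one of its genes, ran from 5966 to 9934 normalized reads in Control (median 7948) and from 5854 to 8329 in LOY libraries (median 7270). Apart from LOY 9, just below the lowest Control library, the LOY values lay within the Control range (−0.18 ± 0.14, limma unadjusted p = 0.247). Atp6v0c ran from 1605 to 2305 in Control (median 1775) and from 1525 to 1892 in LOY libraries (median 1570). Control 12 was highest at 2305, and 4 of 6 LOY libraries lay below the lowest Control library, with a difference of −0.14 ± 0.12 (unadjusted p = 0.241). The processed pseudogene Atp6v0c-ps1 was read at 33.2 ± 5.58 and 27.8 ± 6.17 normalized reads (−0.26 ± 0.49). Its reads are uncertain, because a copy of Atp6v0c may share reads with its parent. The remaining V0 genes were Atp6v0d1, the d subunit, at 1178 ± 424 and 1098 ± 267 (−0.04 ± 0.26), and Atp6v0e, the e subunit, at 6664 ± 750 and 6218 ± 764 (−0.10 ± 0.10).

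In the V1 sector, ATP is split at the interface of the A and B subunits. Atp6v1b2, the B2 subunit gene, ran from 4069 to 7502 normalized reads in Control (median 6779) and from 5908 to 10011 in LOY libraries (median 7257). LOY 4 and LOY 5 lay above the highest Control library, and the difference was 0.20 ± 0.17 (limma, unadjusted p = 0.253). Atp6v1a, the catalytic A subunit gene, stood at 1670 ± 879 and 1554 ± 307, with Control libraries between 559 and 2750. Its estimate was 0.06 ± 0.34 with limma and −0.08 with edgeR.

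Other V1 genes form the stalks that join its parts. Atp6v1g1 ran from 5990 to 8917 normalized reads in Control (median 6738) and from 5668 to 7628 in LOY libraries (median 6675). Atp6v1f ran from 2910 to 4189 in Control (median 3586) and from 2885 to 3988 in LOY libraries (median 3055). Neither differed by more than 1 SE, at −0.05 ± 0.11 and −0.12 ± 0.13. Nor did Atp6v1d, the D subunit (−0.01 ± 0.13), or Atp6v1e1, the E1 subunit, at 5192 ± 646 and 5012 ± 401 (−0.05 ± 0.09). Atp6v1c1, the C1 subunit that links the sectors, stood at 1164 ± 219 and 1008 ± 410 (−0.30 ± 0.28).

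Atp6v1h ran from 14.1 to 516 normalized reads in Control (median 251) and from 138 to 403 in LOY libraries (median 309). Control 1 and 2 lay at 46.2 and 14.1. Its log2 fold change of 0.89 ± 0.82 (limma, unadjusted p = 0.299) was −0.13 without Control 1, 2 and 12. Of the G isoforms, Atp6v1g1 made up 99.6% per kb in each group. Atp6v1g2, at 74.5 ± 99.2 and 60.4 ± 44.1, had a fitted estimate of 1.08 ± 1.66 with limma and −0.29 with edgeR, and libraries at 0 in both groups.

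Summed over the 17 genes, the pump stood at 2912 ± 227 per 1000000 normalized reads for Control and 2862 ± 163 for LOY. The 5 other hydrolases summed to 1582 ± 225 and 1649 ± 140, and all 37 genes to 10929 ± 891 and 11055 ± 789. With all libraries the means differed by less than 1 SD in each case. The proton pump total differed by −49.5 per 1000000, LOY less Control. Without Control 1, 2 and 12 this was −226, more than the LOY SD, and without Control 17 it was 12.

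**Figure D5:**
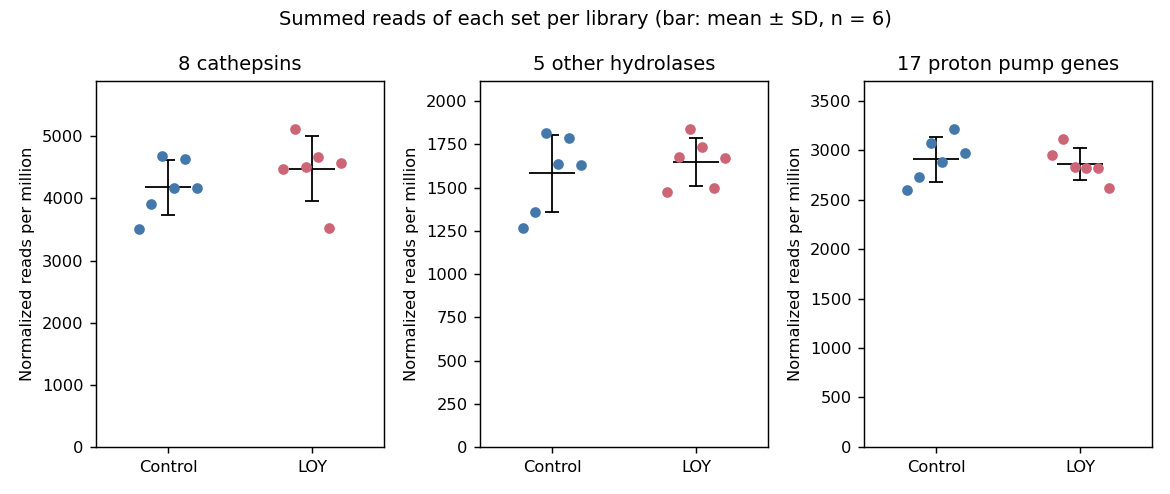
Summed normalized reads per 1000000 of the 8 cathepsins, 5 other hydrolases and 17 proton pump genes in each library (points; bars, mean ± SD, n = 6 per group; axes start at 0). Control and LOY points overlap in each panel, with means of 4177 and 4476, 1582 and 1649, and 2912 and 2862.

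Tfeb (chromosome 17, 47737030 to 47792419) was read at 609 normalized reads per kb in Control libraries, in percentile 89.6 of listed genes. It ran from 2685 to 5252 normalized reads in Control (median 3182) and from 1935 to 3677 in LOY libraries (median 3313). Control 2 was highest at 5252 and LOY 10 lowest at 1935, and the means were 3450 ± 909 and 3128 ± 673 (−0.14 ± 0.19, limma unadjusted p = 0.473). Per kb it exceeded Tfe3, a related factor of the same family, by 3.35 ± 2.28 times in Control and 2.99 ± 0.727 times in LOY libraries, and the Control ratio was 5.53 by the longest transcript. The genes with CACGTG in the promoter had a median log2 fold change of −0.05 (8 genes, from −0.90 for Ctsl to 0.39 for Lamp1), and the 19 with a promoter that lacked it had −0.01.

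The rest of the pathway was read from lists of 155 other lysosomal genes in the table, of which 146 were tested. Among these 0 passed (limma), 4 were higher and 4 lower at an unadjusted p under 0.05 (5.48%, against 6.04% of all tested genes), and the median log2 fold change was 0.05. With edgeR and with DESeq2 these were 1 higher and 6 lower. The limma count of 8 became 13 (8.9%) without Control 1 and 14 (9.59%) without Control 6, where 5.84% and 8.04% of all tested genes had an unadjusted p under 0.05. By list, these were 2 of 46 soluble hydrolases and activators (both higher), 3 of 31 membrane proteins and transporters (all lower), 1 of 12 pump accessory and assembly genes (higher), 0 of 23 genes of enzyme delivery, 1 of 21 genes of the Tfeb relatives and mTORC1 (lower) and 1 of 13 cathepsin inhibitors (higher).

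Of the soluble proteins, Gm2a, the activator that works with hexosaminidase, stood at 20863 ± 3529 and 25249 ± 4312 normalized reads (0.28 ± 0.13, limma unadjusted p = 0.0487, adjusted p = 0.81). Acp2, the lysosomal acid phosphatase, was read at 0 to 7.53 in 4 Control libraries, 63.0 and 436 in the other two, and 75.4 to 298 in LOY libraries (limma, unadjusted p = 0.0164, adjusted p = 0.762). Its estimate was 3.51 with limma, 1.44 without Control 1, 2 and 12 (unadjusted p = 0.228) and 0.98 with edgeR (unadjusted p = 0.462). Gm2a was at 0.12 without those libraries. Smpd1, the acid sphingomyelinase, stood at 197 ± 163 and 482 ± 158 (limma, unadjusted p = 0.0516), with 0 in Control 2 and 6.55 in Control 17. Its limma estimate was 2.92, and 2.58 without Control 1, 2 and 12 (unadjusted p = 0.0265). With edgeR it was 1.31 (unadjusted p = 0.19). Plbd1, a phospholipase B-like protein and the highest of the list per kb (6606), differed by 0.04 ± 0.08.

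Among the membrane proteins Slc15a3, a lysosomal peptide transporter gene, stood at 2356 ± 1218 and 1238 ± 168 normalized reads (−0.79 ± 0.28, limma unadjusted p = 0.0166, adjusted p = 0.762). Control 1, 2 and 12 held its highest values at 3420, 4247 and 2217, while the remaining Control libraries held 1283 to 1583 and LOY libraries 987 to 1490. Without those 3 libraries the estimate was −0.20 (limma, unadjusted p = 0.227). Laptm5, a transmembrane protein of blood-cell lysosomes, stood at 29063 ± 2792 and 25071 ± 2188 (−0.21 ± 0.08, limma unadjusted p = 0.0177, adjusted p = 0.762). Its estimate was −0.15 without Control 1, 2 and 12 (limma, unadjusted p = 0.128) and −0.20 with edgeR (unadjusted p = 0.0308). Sidt2, a nucleic acid transporter gene, stood at 3022 ± 564 and 2236 ± 583 (−0.46 ± 0.18, unadjusted p = 0.0265, adjusted p = 0.794), and Cd68, a macrosialin gene abundant in phagocytes, at 4158 ± 910 and 3895 ± 581 (−0.08 ± 0.16).

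For the pump's accessory genes, Atp6ap1 stood at 14433 ± 1186 and 14402 ± 583 normalized reads (0.00 ± 0.07), and Atp6ap2, the prorenin receptor gene, differed by 0.23 ± 0.19. Vma21, an assembly factor of V0, was at 0 in 4 of 6 Control libraries and at 2.15 and 28.2 in the others, against 4.55 to 64.8 in LOY libraries. Its reads were few in both groups (limma, unadjusted p = 0.00316, adjusted p = 0.539), and with edgeR the unadjusted p was 0.0677. Wdr7 stood at 84.1 ± 76.6 and 249 ± 153 (unadjusted p = 0.0526), and Oxr1 at 185 ± 133 and 249 ± 42.7 (unadjusted p = 0.157). The Oxr1 estimate was 0.91, and 0.15 without Control 1, 2 and 12.

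In the delivery list, Rab7, the GTPase of late endosomes, stood at 9628 ± 1234 and 8975 ± 545 (−0.09 ± 0.09) and Ap1m1, an adaptor subunit, at 4460 ± 1626 and 4871 ± 681 (0.21 ± 0.24). Vps18, of the tethering complexes of late endosomes, lay at 4.30 and 3.84 in Control 1 and 2, at 324 to 803 in the remaining Control libraries and at 429 to 594 in LOY libraries. Its estimate of 2.23 ± 1.27 was 0.57 with edgeR. With its low libraries among those left out it had to fall, and it was 0.09 without Control 1, 2 and 12. Igf2r, the larger mannose 6-phosphate receptor, ran from 0 to 280 in Control and from 5.74 to 454 in LOY libraries, and its estimate of 1.77 ± 1.40 was 0.14 without those 3 libraries. Ap3s1, an adaptor subunit, stood at 542 ± 385 and 333 ± 318 (−0.93 ± 0.68). Of the mTORC1 list, Mtor, the kinase that keeps Tfeb in the cytoplasm, stood at 318 ± 109 and 173 ± 50.5 (−0.85 ± 0.34, limma unadjusted p = 0.0247, adjusted p = 0.794). Rraga, a GTPase that brings the kinase to the lysosome, stood at 644 ± 244 and 369 ± 118 (−0.73 ± 0.36, limma unadjusted p = 0.0662; edgeR unadjusted p = 0.0386). Ppp3ca, a catalytic subunit of calcineurin, stood at 1732 ± 649 and 1177 ± 214 (−0.49 ± 0.23, limma unadjusted p = 0.0555; edgeR unadjusted p = 0.042), and without Control 1, 2 and 12 the estimate was −0.27. The Ragulator genes Lamtor4 and Lamtor5 differed by −0.18 ± 0.15 and −0.05 ± 0.16.

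Among the cystatins and serpins that inhibit cathepsins, Stfa3, a stefin gene, ran from 0 to 61.4 normalized reads in Control and from 8.20 to 148 in LOY libraries (limma, unadjusted p = 0.00944, adjusted p = 0.693; edgeR, unadjusted p = 0.146). The stefin genes are near-identical copies, so how reads were split between them is uncertain. Stfa2l1, the highest per kb (15431), stood at 6466 ± 1723 and 6843 ± 3791 (−0.02 ± 0.27), with 14377 in LOY 10. Cst3, cystatin C, stood at 15682 ± 2591 and 16500 ± 1646 (0.08 ± 0.11), Cstb, cystatin B, at 1423 ± 343 and 1194 ± 202 (−0.23 ± 0.18), and Serpinb6a at 208 ± 111 and 140 ± 86.9 (−1.15 ± 0.94).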

How the data were processed

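The authors deposited 1 table of gene values for 12 libraries. Per the labels' protocols, cDNA was made with SMART-Seq v4 and libraries with Nextera XT, which does not mark strand. The submitters' processing notes list, with no role or order, STAR 2.5.2b, Subread 1.5.2 with featureCounts, Trimmomatic 0.36 and bcl2fastq 2.17, and the builds mm10 and GRCm38. In each library 100.0% of the deposited signal values above 0 were whole multiples of 1 step, within 0.02 reads, so each is a number of reads scaled by a factor of that library. How the factors were made was not given in the sources used. Per the file headers, the authors' own log2 fold change, p-value and adjusted p-value stand beside the signal. Genes with a mean below 8.63 are not listed.

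The test was limma 3.58.1 (R 4.3.3; trended, robust empirical Bayes) on log2(value + 1) over genes with 10 or more in at least 6 libraries, adjusted by Benjamini-Hochberg over 9742 genes. Fold changes on this scale understate the change of low genes, and overstate it where a group has some libraries near 0. Levels per kb used merged exons of GENCODE vM21 (11475 identifiers matched). Totals are per 1000000 normalized reads. The alternatives tried were DESeq2 1.42.0 and edgeR 4.0.16 (quasi-likelihood) on recovered reads, TMM and quantile scaling, pseudocounts of 0.5 and 5, a minimum mean of 50, no filter, each library left out, Control 1, 2 and 12 left out, and, chosen after seeing the data, the longest transcript as gene length. Control 1, 2 and 12 were likewise picked from these data, where they had the largest shares of listed genes at 0, and not from the labels. Leaving them out leaves fewer Control than LOY libraries. Where a gene is near 0 in them but not in the other Control libraries, its estimate must fall without them. Such a fall is no separate check. The scripts were tested on simulated data. No simulated library was set apart by its genes at 0, so that test does not cover libraries such as Control 1, 2 and 12. The groups share no replicate number and the labels give no batch, so the fit has no covariate.

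The members and lists were chosen with earlier results of these data known. The lowest, median and highest library values of each group are given for the 12 members of smallest unadjusted p, the 6 highest per kb, Tfeb, Tcirg1, Lamp1 and Lamp2. Of each other list, up to 3 genes of smallest p and the 2 highest per kb are named.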

Additional observations from a re-analysis of the deposited data

Results flagged for a closer look

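Of 82 groups of 6 libraries tested for a single library far from the others, 3 had one, and chance gives about 1 in 20. All 3 lay in Control libraries that had many genes at 0. Npc2 was lowest in Control 2, at 637 normalized reads, where the rest of the group ran from 1271 to 1537. Atp6v0c was highest in Control 12, at 2305, against 1605 to 1821. Tfeb was highest in Control 2, at 5252, against 2685 to 3309.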

How the results depend on the processing

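Over the 21 alternatives, 0 of the 37 genes and 0 of the other lysosomal genes passed, and the smallest adjusted p was 0.476 and 0.086 (limma, edgeR or DESeq2). No paired analysis was possible because the 2 groups share no replicate number. At an unadjusted p under 0.05, the 3 members became 1 with edgeR and 1 without Control 1, 2 and 12, and 1 to 4 with 1 library left out, and the 8 other lysosomal genes 6 to 14. Without Control 1, 2 and 12 the sign of the estimate turned for Ctsz (−0.01), Hexa (−0.13), Npc2 (−0.08), Grn (0.02), Atp6v0a2 (−0.14), Atp6v1g1 (0.03), Atp6v1h (−0.13), Plbd1 (−0.04), Ap1m1 (−0.08), Lamtor4 (0.01), Cst3 (−0.01) and Stfa2l1 (0.23). With edgeR it turned for Atp6v0a2 (−0.04), Atp6v1a (−0.08), Atp6v1g2 (−0.29) and Stfa2l1 (0.10). With DESeq2 it turned for Atp6v0a2 (−0.05), Atp6v1a (−0.10), Atp6v1g2 (−0.30), Atp6ap1 (−0.00347) and Stfa2l1 (0.08). With quantile normalization it turned for Atp6v0d1 (0.01), Atp6v1d (0.05), Atp6ap1 (−0.00441) and Lamtor5 (0.00211), and with TMM scaling for Atp6v1d (0.00184). With 1 library left out, estimates ran across 0 for Ctsc (−0.16 to 1.14), Ctsh (−0.06 to 0.12), Hexa (−0.08 to 0.07), Man2b1 (−0.09 to 0.00349), Npc2 (−0.12 to 0.14), Grn (−0.20 to 0.02), Atp6v0a2 (−0.30 to 0.40), Atp6v0d1 (−0.24 to 0.09), Atp6v1a (−0.22 to 0.24), Atp6v1d (−0.08 to 0.04), Atp6v1e1 (−0.08 to 0.01), Atp6v1g1 (−0.09 to 0.03), Cd68 (−0.21 to 0.01), Atp6ap1 (−0.05 to 0.02), Lamtor5 (−0.15 to 0.00455), Cst3 (−0.000186 to 0.14) and Stfa2l1 (−0.26 to 0.11). The cause of these turns was not tested. With the longest transcript the share of Lamp2 moved to 94.8%. The number of libraries and the spread between them limit what can be seen: for 9 members the 95% interval reached past a 2-fold change.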
